A study of Homo sapiens with 6 samples.

Results

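Cyclin-dependent kinase (CDK) inhibitors and 2 genes tied to them were followed in paclitaxel (PTX)-resistant MDA-MB-231 cells, a triple-negative human breast cancer cell line, after sorting on aldehyde dehydrogenase (ALDH) activity. The 9 genes were chosen by name: the Cip/Kip inhibitors CDKN1A, CDKN1B and CDKN1C, the INK4 inhibitors CDKN2A, CDKN2B, CDKN2C and CDKN2D, the metabolic gene MTAP beside CDKN2A and CDKN2B on chromosome 9, and MDM2. They are 9 of the 61016 genes to which transcripts on file could be assigned. The groups were BCSC (breast cancer stem cells, ALDH+, 3 libraries) and non-BCSC (ALDH−, 3 libraries). That both came from the same resistant line, and their ALDH states, are taken from the paper. The titles name MDA-MB-231 and its resistance for the BCSC libraries only. No library was labelled as parental or untreated cells, and the labels do not say that replicates came from separate cultures. The p-values therefore measure the spread between these libraries, which may be technical. All 6 libraries carry one cell type label, so the groups were read from the titles.

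CDK inhibitors bind cyclin-CDK complexes and hold the cell cycle. INK4 proteins bind CDK4 and CDK6 and keep them from cyclin D, whereas Cip/Kip proteins act on a wider range of complexes, above all those of CDK2. CDKN2A also encodes ARF, which inhibits the ubiquitin ligase MDM2. CDKN2A is reported deleted in MDA-MB-231.

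Sequences before the start sites are shown for the 4 genes whose BCSC and non-BCSC libraries did not overlap, namely CDKN1A, CDKN2D and MTAP (higher in BCSC) and CDKN1B (lower). Each is the 250 bases before a RefSeq start on GRCh38.p14, read on the gene's strand from 5′ to 3′. Capitals mark the GC box GGGCGG, the element that SP1 binds, or its reverse complement, and the TATA box TATAAA. The regions are chr6:36678464-36678713 for CDKN1A, chr19:10568980-10569229 for CDKN2D, chr9:21802386-21802635 for MTAP and chr12:12717118-12717367 for CDKN1B.
CDKN1A: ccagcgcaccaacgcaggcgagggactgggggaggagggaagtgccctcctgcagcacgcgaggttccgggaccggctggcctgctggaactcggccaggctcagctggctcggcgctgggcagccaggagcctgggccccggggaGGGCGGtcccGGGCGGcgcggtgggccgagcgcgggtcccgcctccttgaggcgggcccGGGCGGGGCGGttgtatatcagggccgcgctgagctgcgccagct
CDKN2D: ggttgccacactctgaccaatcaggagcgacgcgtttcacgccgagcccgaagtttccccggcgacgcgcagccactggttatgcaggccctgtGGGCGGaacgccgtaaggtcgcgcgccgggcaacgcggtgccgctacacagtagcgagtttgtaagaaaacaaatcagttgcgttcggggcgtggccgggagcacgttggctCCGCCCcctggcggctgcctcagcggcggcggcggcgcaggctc
MTAP: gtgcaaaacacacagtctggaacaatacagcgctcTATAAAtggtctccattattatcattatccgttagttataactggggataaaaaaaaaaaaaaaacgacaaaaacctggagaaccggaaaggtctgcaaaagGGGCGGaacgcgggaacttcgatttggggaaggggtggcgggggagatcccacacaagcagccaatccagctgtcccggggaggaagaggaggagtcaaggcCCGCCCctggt
CDKN1B: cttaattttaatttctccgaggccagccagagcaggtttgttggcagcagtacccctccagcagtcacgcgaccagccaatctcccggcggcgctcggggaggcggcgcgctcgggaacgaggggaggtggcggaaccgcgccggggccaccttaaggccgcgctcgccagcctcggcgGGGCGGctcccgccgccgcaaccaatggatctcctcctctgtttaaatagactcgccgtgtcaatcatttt

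The CDKN1A region held 4 GC boxes, a number that 7.63% of the 35116 RefSeq promoter windows of this length reached, and 76.4% of its bases were G or C against a median of 58.0% over all windows. The CDKN2D region held 2 and the CDKN1B region 1, with GC contents of 67.6% and 64.4%. The MTAP region held 2 GC boxes and 1 TATA box, and was the poorest in G and C of the 4. At least 1 GC box stood in 42.6% of all windows, and TATAAA in 10.7%. Both strands were searched, and overlapping matches were counted separately. A match is a description of these letters only.

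The BCSC libraries held 15925943 to 21215352 counts and the non-BCSC libraries 9898588 to 12263667. Values are CPM, counts per 1000000 with library sizes normalized by TMM, unless a level per kb is named. A count of 0 allows up to 3 counts, or 0.148 to 0.288 CPM depending on the library, and such limits cover counting error only. The 7 markers of MDA-MB-231 were counted in both groups, CAV1 being called higher and KRT18 lower in BCSC, with sums of 7015 to 8150 CPM in BCSC and 4471 to 5959 in non-BCSC. The 8 leukocyte markers summed to 0.783 to 2.24 CPM in BCSC and 18.7 to 29.3 in non-BCSC, with CD3D and LYZ at 0 in BCSC. The 6 measured fibroblast and endothelial markers summed to 74.4 to 94.1 and 146 to 181 CPM, and the 7 luminal markers to 103 to 125 and 128 to 161 CPM. ALDH1A1, an enzyme whose activity the sort can read, was counted 0, 5 and 6 times across the BCSC libraries, compared with 38, 28 and 32 in non-BCSC. It was thus lower in BCSC, the group that the paper describes as ALDH+ (log2 fold change −3.63, adjusted p by edgeR = 0.0446). ALDH1A3, a related enzyme, was counted 519, 467 and 553 times across the BCSC libraries, compared with 285, 192 and 126 in non-BCSC, and was not called (log2 fold change 0.77, adjusted p by edgeR = 0.0577). As a gauge of background, 391 olfactory receptor genes, for which breast cells have no known use, took 1.19, 1.29 and 3.32 counts per kb of transcript across the BCSC libraries, compared with 9.13, 9.61 and 15.0 across non-BCSC. The part of these differences in the results below was not tested, and in bulk samples fewer cells of a type and less RNA per cell cannot be told apart.

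Of the 9 genes, 8 passed the filter on low counts, and CDKN2C did not. One gene, CDKN1A, was called higher in BCSC and 0 were called lower, at an adjusted p under 0.05 and a fold above 2 (edgeR quasi-likelihood test, adjusted over 20442 genes). Of all genes tested, 8.85% were called higher and 11.3% lower. MTAP and CDKN1B passed the adjusted p without the fold minimum, in opposite directions, where 15.3% of all genes were higher and 14.6% lower. The libraries did not overlap for 3 of the 8 genes with higher values in BCSC and for 1 with lower values, against 24.2% and 27.9% of all genes. The median log2 fold change (BCSC over non-BCSC) was −0.09 over the 8 genes and −0.05 over all genes. Counts this small among 8 genes were near the background.

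**Figure D1:**
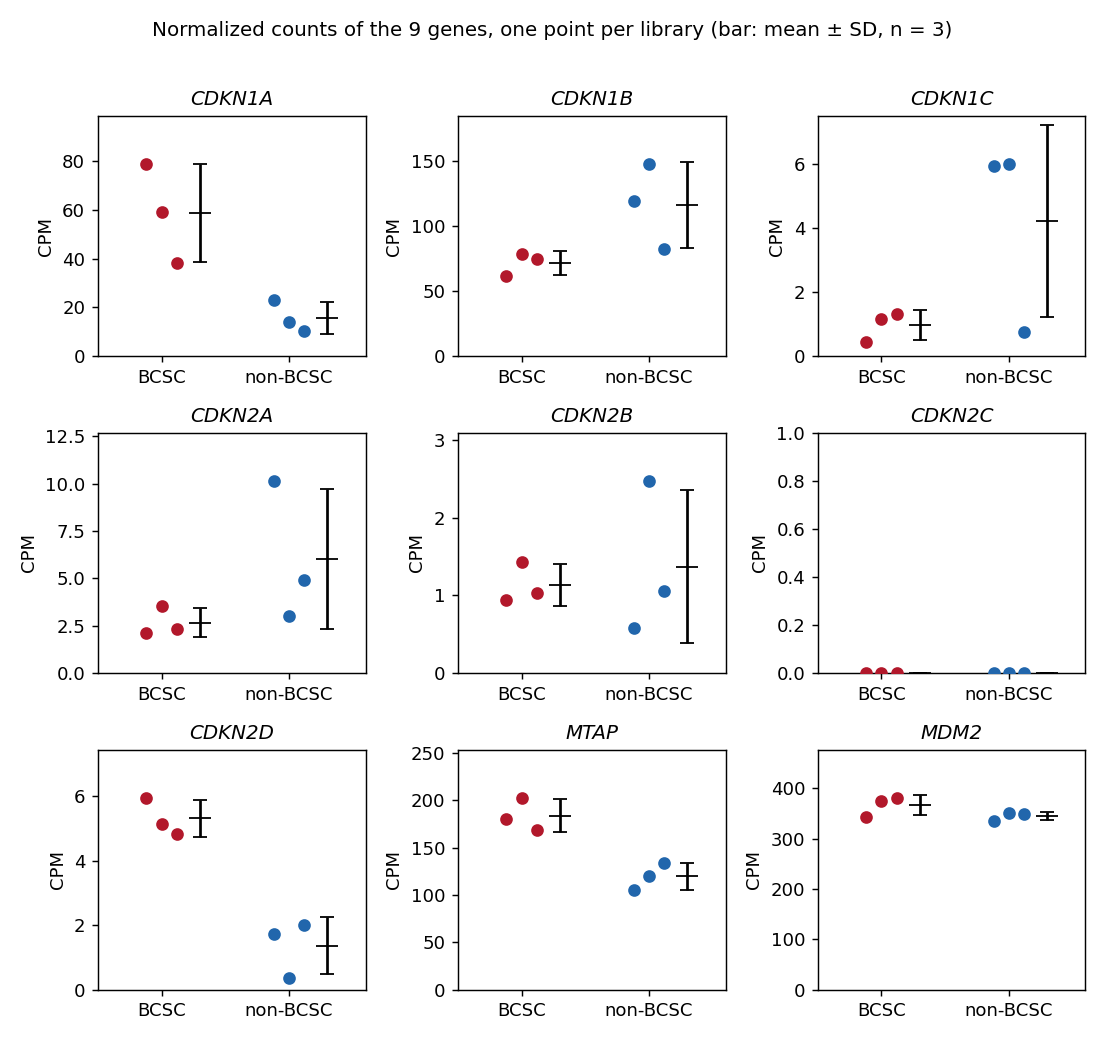
CPM (vertical axis, linear, from 0) of each of the 9 genes in the 3 BCSC libraries (red) and the 3 non-BCSC libraries (blue), with bars for the mean ± SD. CDKN1A, CDKN2D and MTAP lay higher in every BCSC library than in any non-BCSC library, CDKN1B lay lower, CDKN2C was at 0 throughout, and the other 4 genes overlapped.

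CDKN1A (ENSG00000124762, chromosome 6, 36644237 to 36655114, GRCh37) encodes p21, which binds cyclin-CDK complexes and PCNA and halts the cycle after DNA damage. Counts across the BCSC libraries were 1601, 909 and 635, compared with 277, 158 and 108 across non-BCSC. In CPM these were 78.9, 59.3 and 38.4 against 22.9, 14.0 and 10.4. Every BCSC library lay above every non-BCSC library, and the lowest BCSC value was still above the highest non-BCSC value. The means were 58.9 ± 20.2 and 15.7 ± 6.44 CPM (SD, n = 3 each), a 3.74-fold difference. The fitted log2 fold change was 1.90 ± 0.34 (SE), and the adjusted p by edgeR was 0.00422. When any 1 library was left out it was 1.63 to 2.33, with an adjusted p of at most 0.0298. After correction for GC content and transcript length in each library, the log2 fold change was 0.63 (adjusted p by edgeR = 0.0589) and the call was lost, under a setting that called 16.8% of all genes higher. The GC content of its transcripts was 60.1%, against a median of 46.2% over the genes tested. DINOL, which overlaps CDKN1A on the other strand, was counted 0, 4 and 0 times across the BCSC libraries, compared with 0, 0 and 36 in non-BCSC.

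CDKN1B (ENSG00000111276, chromosome 12, 12838432 to 12875303) encodes p27, which restrains CDK2 and is removed through SKP2 as cells enter S phase. Across the BCSC libraries it stood at 61.1, 78.5 and 74.5 CPM, compared with 119, 147 and 81.8 in non-BCSC. The groups did not overlap, but non-BCSC replicate 3 lay close to the BCSC values. The means were 71.4 ± 9.09 and 115.9 ± 32.8 CPM (SD, n = 3), with a log2 fold change of −0.70 ± 0.20 (SE; adjusted p by edgeR = 0.0285), short of the fold minimum. Leaving out 1 library gave −0.88 to −0.45, and the adjusted p stayed under 0.05 in 2 of 6 fits, those without BCSC replicate 3 and without non-BCSC replicate 3. The sign turned after the GC and length correction, to 0.34 (adjusted p by edgeR = 0.351), at a GC content of 41.9%. Counts of GPR19, which overlaps CDKN1B on the other strand, came to 12.7% of those of CDKN1B in BCSC and 3.54% in non-BCSC. Whether strand was used in counting is not given in the sources used here, so reads of such pairs may not be told apart.

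CDKN1C (ENSG00000129757, chromosome 11, 2904443 to 2907005) encodes p57, an imprinted growth inhibitor. Counts across the BCSC libraries were 9, 18 and 22, compared with 72, 68 and 8 across non-BCSC. Both high values were non-BCSC libraries, while non-BCSC replicate 3 lay within the range of BCSC in CPM (0.767 against 0.443 to 1.33). The fitted log2 fold change was −2.11 ± 0.91 (SE), and the adjusted p by edgeR was 0.104. Without non-BCSC replicate 3 it was −2.58 (adjusted p by edgeR = 0.0386) and CDKN1C was called lower, where 4.91% of all genes were called lower and 6.74% higher. It was also called lower after the GC and length correction (−3.38, adjusted p by edgeR = 0.0158), as were 8.86% of all genes.

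The balance of the Cip/Kip genes within a library was compared per kb of transcript, the scale on which genes can be compared with each other. The ratio of CDKN1A to CDKN1B was 1.89, 1.17 and 0.762 across the BCSC libraries, compared with 0.269, 0.128 and 0.193 across non-BCSC. All BCSC ratios lay above all non-BCSC ratios, and a two-sided exact test over the 20 permutations gave p = 0.1, which is the lowest value that 3 against 3 libraries can reach. The ratios were chosen after the values of CDKN1A, CDKN1B, MTAP and MDM2 were seen. The exact p-values of this paragraph therefore describe the separation only and add no support to the difference in CDKN1A. The ratio of CDKN1A to MDM2 was 0.508, 0.386 and 0.244 across the BCSC libraries, compared with 0.215, 0.106 and 0.0823 across non-BCSC, also without overlap (exact permutation p = 0.1). The ratio of MTAP to MDM2 was 1.17, 1.76 and 1.22 across the BCSC libraries, compared with 2.28, 1.03 and 1.68 across non-BCSC, and overlapped (exact permutation p = 0.7). Over these 3 ratios the Benjamini-Hochberg adjusted values were 0.15, 0.15 and 0.7. With 1 merged exon length per gene in place of the length of each transcript, the ratio of MTAP to MDM2 was 0.253 to 0.309 in BCSC and 0.18 to 0.219 in non-BCSC, without overlap and higher in BCSC (exact permutation p = 0.1, and 0.1 after adjustment over the 3 ratios). The level of MTAP per kb of transcript takes in short transcripts such as MTAP-204 (399 bases, 276 counts in non-BCSC replicate 1), so the direction of this ratio depends on the length used. The ratios that hold CDKN1A did not overlap with merged exons either. After the GC and length correction the fitted log2 difference of CDKN1A over CDKN1B went from 2.60 to 0.28, and that of CDKN1A over MDM2 turned from 1.81 to −0.98.

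CDKN2D (ENSG00000129355, chromosome 19, 10677136 to 10679735) encodes p19INK4d, an inhibitor of CDK4 and CDK6. Counts across the BCSC libraries were 121, 79 and 80, compared with 21, 4 and 21 across non-BCSC, or 5.96, 5.15 and 4.84 CPM against 1.73, 0.353 and 2.01 CPM. The groups did not overlap, and the non-BCSC counts were few. The means were 5.32 ± 0.579 and 1.37 ± 0.889 CPM (SD, n = 3), with a log2 fold change of 1.95 (SE 0.71) and an edgeR adjusted p of 0.0634, so the gene was not called. DESeq2 called it higher (1.91, adjusted p 0.0307), together with 6.55% of all genes. After the GC and length correction the log2 fold change was 0.63, at a GC content of 61.4%. In non-BCSC its count per kb was 0.292 to 1.61 times that of olfactory receptor genes, and in BCSC 16.9 to 71.1 times.

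CDKN2C (ENSG00000123080, chromosome 1, 51426417 to 51440306), which encodes p18INK4c, had 0 counts in all 6 libraries for each of its 3 transcripts on file. A sum of 0 over 3 libraries has an upper limit of 3.69 counts (exact 95% Poisson interval). At the rate of olfactory receptor genes per kb of merged exons, a gene of its length would hold 13.5 counts over the BCSC libraries and 85.9 over the non-BCSC libraries. No fold change can be given for CDKN2C.

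The surroundings of CDKN2C, 1000000 bases to either side, were examined after this value was seen. The region held 49 genes, of which 12 had a mean of at least 10 counts in either group. FAF1, which starts next to CDKN2C on the other strand and encodes a regulator of Fas signalling and protein degradation, was counted 4, 4 and 19 times across the BCSC libraries, compared with 50, 52 and 30 in non-BCSC. FAF1 and CDKN2C together had 0.22 to 0.673 times the counts per kb of merged exons of olfactory receptor genes in the same libraries. The next gene past CDKN2C with a mean of at least 10 counts, RNF11, was counted 2573, 2228 and 2592 times across the BCSC libraries, compared with 928, 998 and 876 in non-BCSC (log2 fold change 0.79, adjusted p by edgeR = 0.0025, below the fold minimum). EPS15 beyond it was counted 1351 to 2831 times per library, with a log2 fold change of −0.016. Of the 10 genes tested there, 0 were called higher and 2 lower, FAF1 and ELAVL4, both within 0.574 to 1.55 times the olfactory receptor level per kb of transcript in either group. Over all genes 8.85% were called higher and 11.3% lower.

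CDKN2A (ENSG00000147889, chromosome 9, 21967751 to 21995300) encodes p16INK4a and ARF from separate first exons. Counts across the BCSC libraries were 43, 54 and 38, compared with 123, 34 and 51 across non-BCSC, so counts were present in every library of a line in which the gene is reported deleted. In CPM these were 2.12, 3.52 and 2.30 against 10.2, 3.004 and 4.89. Non-BCSC replicate 1 stood above the others, and non-BCSC replicate 2 lay within the BCSC range. The fitted log2 fold change was −1.19 ± 0.59 (SE), and the adjusted p by edgeR was 0.154. Without non-BCSC replicate 1 it was −0.52 (adjusted p by edgeR = 0.565). CDKN2A was called lower after the GC and length correction (−2.22, adjusted p by edgeR = 0.00862), as were 8.86% of all genes. Per kb of transcript its counts were 12.9 to 45.9 times those of olfactory receptor genes in BCSC and 3.70 to 20.6 times in non-BCSC. Per kb of merged exons, its summed counts came to 775% of the olfactory receptor rate in BCSC and 188% in non-BCSC. The distance from background therefore depends on the length used, and short transcripts raise the first scale.

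The transcripts behind the CDKN2A sum differed between libraries. CDKN2A-203, which starts at the p16INK4a first exon, was counted 25, 22 and 22 times across the BCSC libraries, compared with 28, 12 and 22 in non-BCSC. CDKN2A-214, which starts at the ARF first exon, was counted 18, 27 and 16 times across the BCSC libraries, compared with 6, 5 and 29 in non-BCSC. CDKN2A-207 and CDKN2A-212 had 55 and 33 counts in non-BCSC replicate 1 and 0 in the other libraries, and they make up most of the high count of that library. CDKN2A transcripts share 257 to 280 bases with CDKN2B at 91.7% to 93.1% identity, and 252 bases of CDKN2A-214 lie antisense to CDKN2B-AS1, so the split of reads between these genes is uncertain.

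CDKN2B (ENSG00000147883, chromosome 9, 22002902 to 22009304) encodes p15INK4b, a target of transforming growth factor beta. Counts across the BCSC libraries were 19, 22 and 17, compared with 7, 28 and 11 across non-BCSC. The groups overlapped, with a log2 fold change of −0.27 ± 0.93 (SE; adjusted p by edgeR = 0.846), and the sign turned without non-BCSC replicate 2 (0.52, adjusted p 0.757). Its count per kb of transcript was 3.27 to 14.9 times that of olfactory receptor genes in BCSC, but 0.273, 1.46 and 0.281 times in non-BCSC. Per kb of merged exons, its summed counts came to 323% of the olfactory receptor rate in BCSC and 40.4% in non-BCSC. CDKN2B-201, the longest transcript, was at 0 throughout BCSC and at 6, 18 and 9 counts in the non-BCSC libraries, whereas CDKN2B-202 was at 0, 17 and 11 counts in the BCSC libraries and at 0 throughout non-BCSC.

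MTAP (ENSG00000099810, chromosome 9, 21802635 to 21937650) encodes methylthioadenosine phosphorylase, which recycles the by-product of polyamine synthesis and is often lost together with CDKN2A in tumours. Its counts were high in all libraries, at 3661, 3111 and 2787 across BCSC, compared with 1281, 1361 and 1397 across non-BCSC. In CPM these were 180.3, 203 and 169 against 106, 120.2 and 134. Each BCSC library lay above each non-BCSC library. The means were 184 ± 17.5 and 120.0 ± 14.1 CPM (SD, n = 3), with a log2 fold change of 0.62 ± 0.13 (SE; adjusted p by edgeR = 0.00745), below the fold minimum. Leaving out any 1 library gave 0.57 to 0.72, with an adjusted p under 0.05 in 6 of 6 fits. After the GC and length correction MTAP was called higher (1.54, adjusted p by edgeR = 0.000352), as were 16.8% of all genes. With the olfactory receptor background removed the log2 fold change of MTAP was 0.39 and the adjusted p by edgeR 0.0604. The genes closest to MTAP in pattern over the 6 libraries, by root mean square difference of centred log2 CPM among 12589 genes, were PROSER1 (0.0567), MFSD14B (0.0633) and STAG3L4 (0.0697).

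MTAP-213 held 63.0% to 84.6% of the MTAP counts in each library. It ends at base 21867080 of chromosome 9, ahead of the end of the gene toward CDKN2A. MTAP-212, which lies at 21930389 to 21932738, had 0 counts in BCSC and at most 3 in a non-BCSC library. Within the annotated MTAP, past the end of MTAP-213, lies ENSG00000279670 on the same strand, counted 438, 350 and 378 times in the 3 BCSC libraries, compared with 176, 98 and 170 in non-BCSC. Its counts came to 11.8% of those of MTAP, and those of ENSG00000265194, on the other strand within MTAP, to 3.66%. MTAP-213 also shares 837 bases at 92.6% identity with the pseudogene MTAPP2, which took 81 counts over the BCSC libraries together and 154 over the non-BCSC libraries.

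Around CDKN2A, within 2000000 bases to either side, 78 annotated genes had transcripts on file, and 28 of them had a mean of at least 10 counts in either group. On the MTAP side MLLT3, a chromatin reader, was counted 413 to 755 times per library and FOCAD 513 to 962 times, with log2 fold changes of −0.10 and −0.06. KLHL9, a ubiquitin ligase adaptor, was counted 1456, 1300 and 1533 times across the BCSC libraries, compared with 932, 992 and 674 in the smaller non-BCSC libraries, a log2 fold change of 0.12 ± 0.16 (SE; adjusted p by edgeR = 0.585). On the other side DMRTA1 was counted 201, 180 and 268 times across the BCSC libraries, compared with 59, 160 and 95 in non-BCSC, a log2 fold change of 0.43 ± 0.41 (SE; adjusted p by edgeR = 0.456). CDKN2A-DT, annotated next to CDKN2A on the other strand, had 0 counts in all libraries. CDKN2B-AS1, the antisense transcript ANRIL, was counted 0, 1 and 0 times across the BCSC libraries, compared with 10, 3 and 1 in non-BCSC. Together CDKN2A-DT and CDKN2B-AS1 had at most 0.0669 times the counts per kb of merged exons of olfactory receptor genes.

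The 16 interferon genes of the region are a further reference, since they are largely silent without infection. Their counts summed to 10, 24 and 44 across the BCSC libraries and to 190, 146 and 162 across non-BCSC, which is 0.703 to 1.64 times the olfactory receptor rate per kb of merged exons. IFNB1 alone held 8, 8 and 21 of these counts across BCSC and 42, 18 and 6 across non-BCSC. That was 983% of the olfactory receptor rate in BCSC and 276% in non-BCSC, so the BCSC sums rest in large part on this gene. IFNB1, IFNE, IFNA2, IFNA5, IFNA8, IFNA10, IFNA16 and the pseudogene IFNA22P had a mean of at least 10 counts in non-BCSC or BCSC, of which IFNB1 and IFNE were tested and not called. Of the 17 genes tested in the region, 0 were called higher and 2 lower, where 8.85% and 11.3% of all genes were. These were MIR31HG, the host of miR-31 (log2 fold change −3.05 ± 0.65, SE; adjusted p by edgeR = 0.00877), and HACD4 (−3.13 ± 0.61, SE; adjusted p by edgeR = 0.00635). Per kb of transcript they stood at 3.19 and 1.27 times the olfactory receptor level in BCSC, and 2.27 and 1.26 times in non-BCSC. Per kb of merged exons MIR31HG held 71.2% of the olfactory receptor rate in BCSC and 62.9% in non-BCSC, and HACD4 148% and 135%. The remaining genes that reached that mean, RN7SL151P, LINC01239, CLIC4P1, ELAVL2, ENSG00000277711, ENSG00000261696, ENSG00000284418, ENSG00000283982 and ENSG00000287843, held at most 97 counts in any library and were not called.

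**Figure D2:**
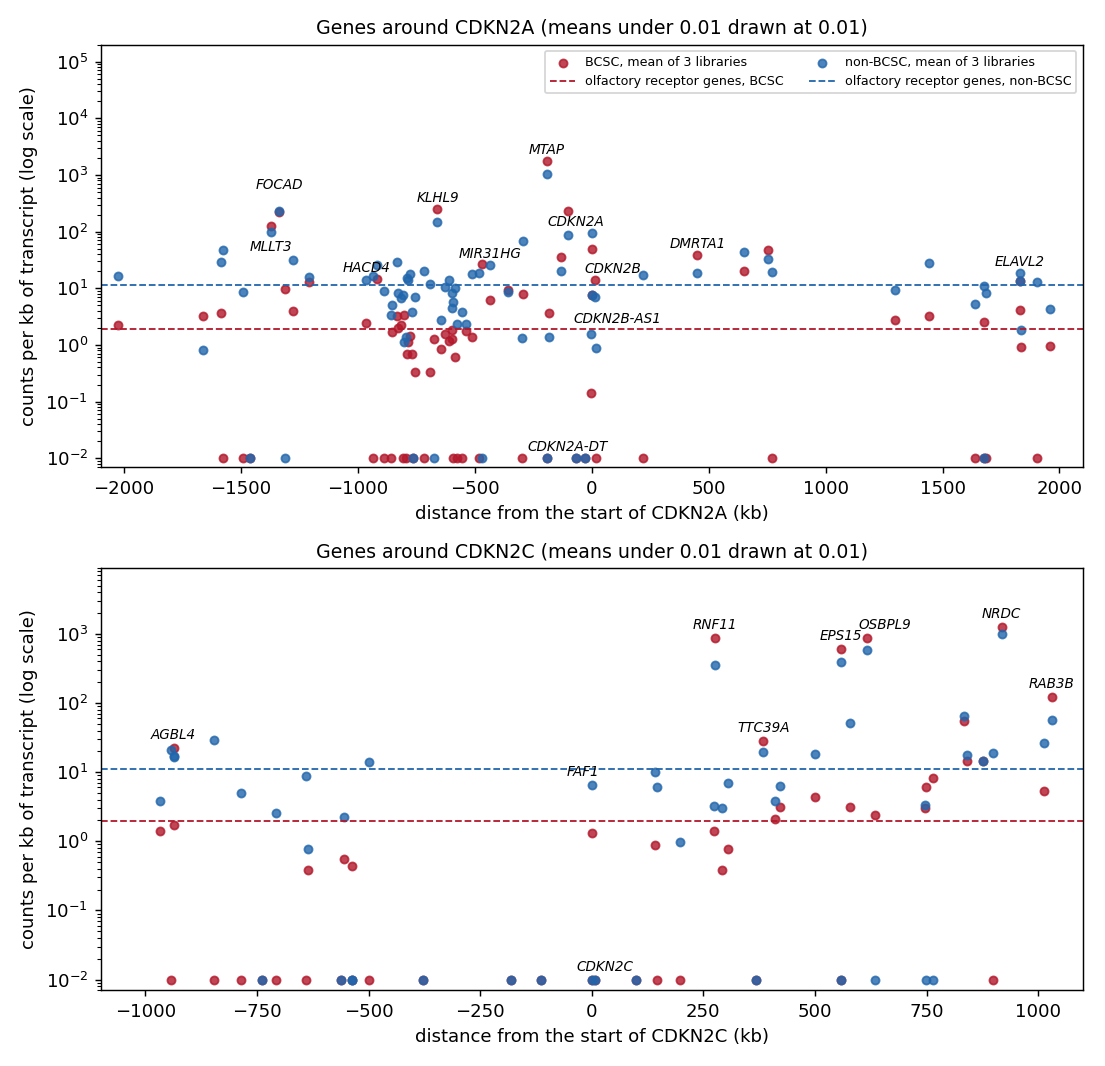
Mean counts per kb of transcript (log scale) of the genes around CDKN2A (top) and CDKN2C (bottom), against the distance of their starts in kb, in BCSC (red) and non-BCSC (blue), with dashed lines for the rate of the olfactory receptor genes in each group and means under 0.01 drawn at 0.01. MTAP and KLHL9 stood above both lines, CDKN2B-AS1 and CDKN2A-DT below them, and CDKN2C was at 0 between the low FAF1 and the high RNF11.

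MDM2 (ENSG00000135679, chromosome 12, 69201957 to 69239324) was counted 6980, 5758 and 6306 times across the BCSC libraries, compared with 4062, 3972 and 3640 in non-BCSC. In CPM these were 344, 376 and 381 against 335, 351 and 349, and the groups overlapped. The means were 367 ± 20.2 and 345 ± 8.59 CPM (SD, n = 3), and the log2 fold change was 0.09 ± 0.09 (SE; adjusted p by edgeR = 0.482). Its sign depended on the scaling, at −0.0037 under RLE size factors, −0.15 with the background removed and 1.61 after the GC and length correction (called higher, adjusted p by edgeR = 0.000389). The GC and length correction called 16.8% of all genes higher. MDM2 transcripts had a GC content of 40.2%. MDM2-202, the longest transcript with counts, held 84.6% to 96.8% of the counts in each library.

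With the olfactory receptor background removed, 7 of the 9 genes were tested, and CDKN1A was again called higher (1.80, adjusted p by edgeR = 0.00821), with 0 genes called lower. In that fit 10.8% of all genes were called higher and 6.55% lower. CDKN1B stood at −0.91 and CDKN2D at 3.56 (adjusted p by edgeR = 0.0132 and 0.0611).

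**Figure D3:**
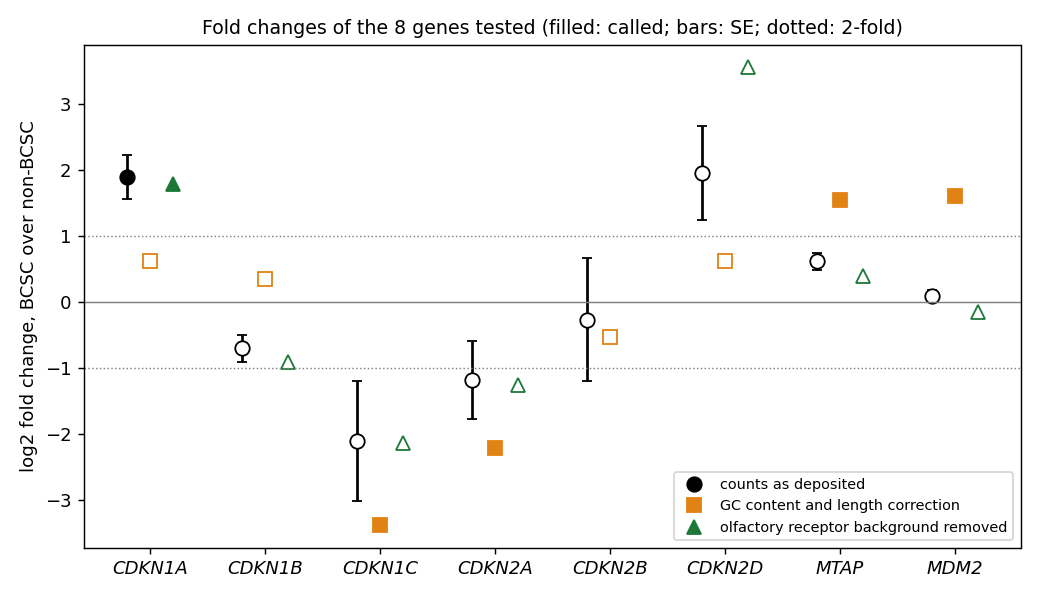
Log2 fold change (BCSC over non-BCSC) of the 8 genes tested, from the counts as deposited (black circles, with SE), with GC content and transcript length corrected (orange squares) and with the olfactory receptor background removed (green triangles). Filled symbols were called, and CDKN1A was the only gene filled in black, while the orange symbols were filled for CDKN1C and CDKN2A below zero and for MTAP and MDM2 above it.

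Per kb of transcript, MTAP and MDM2 had the highest levels, 103.5 ± 27.2 and 74.5 ± 1.96 CPM per kb in BCSC (SD, n = 3). CDKN1A (28.2 ± 9.51) and CDKN1B (22.9 ± 2.96) followed in BCSC and did not differ beyond their spread. CDKN2D, CDKN2A, CDKN2B and CDKN1C came after them, from 3.73 down to 0.509 CPM per kb, and both CDKN2D and CDKN2A, and CDKN2B and CDKN1C, overlapped in their libraries. In non-BCSC CDKN1B (39.2 ± 13.2) took the third place and CDKN1A (7.502 ± 3.16) the fifth, next to CDKN2A (8.04 ± 6.56), with which it overlapped. CDKN1C (2.21 ± 1.57), CDKN2D (0.959 ± 0.624) and CDKN2B (0.616 ± 0.549) were last in non-BCSC and overlapped with their neighbours. When merged exons set the length, MDM2 (44.2 in BCSC) lay above CDKN1A (19.6) and MTAP (12.7), so the first place depends on the length used.

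Of the transcripts of the 9 genes, 49 had counts and 22 were tested. By edgeR 0 were called, 6 had an unadjusted p under 0.05, and over all 45898 transcripts 0.597% were called higher and 0.187% lower. DESeq2 called 1 higher, CDKN1A-203, and 2 lower, CDKN1B-209 and CDKN2B-201, where it called 3.97% higher and 3.55% lower over all transcripts. CDKN1A-203 took 762, 4 and 261 counts across BCSC and was at 0 throughout non-BCSC. CDKN1A-201, which starts and ends within a few bases of it and is 2117 bases long to its 2267, took 824, 887 and 368 counts across BCSC, compared with 275, 158 and 108 across non-BCSC. BCSC replicate 2 therefore had almost no counts of CDKN1A-203, although its CDKN1A sum lay between those of the other BCSC libraries. CDKN1B-201 and CDKN1B-205 shared the CDKN1B counts, with CDKN1B-201 at 45.4% to 49.1% in BCSC and 36.8% to 59.8% in non-BCSC.

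**Figure D4:**
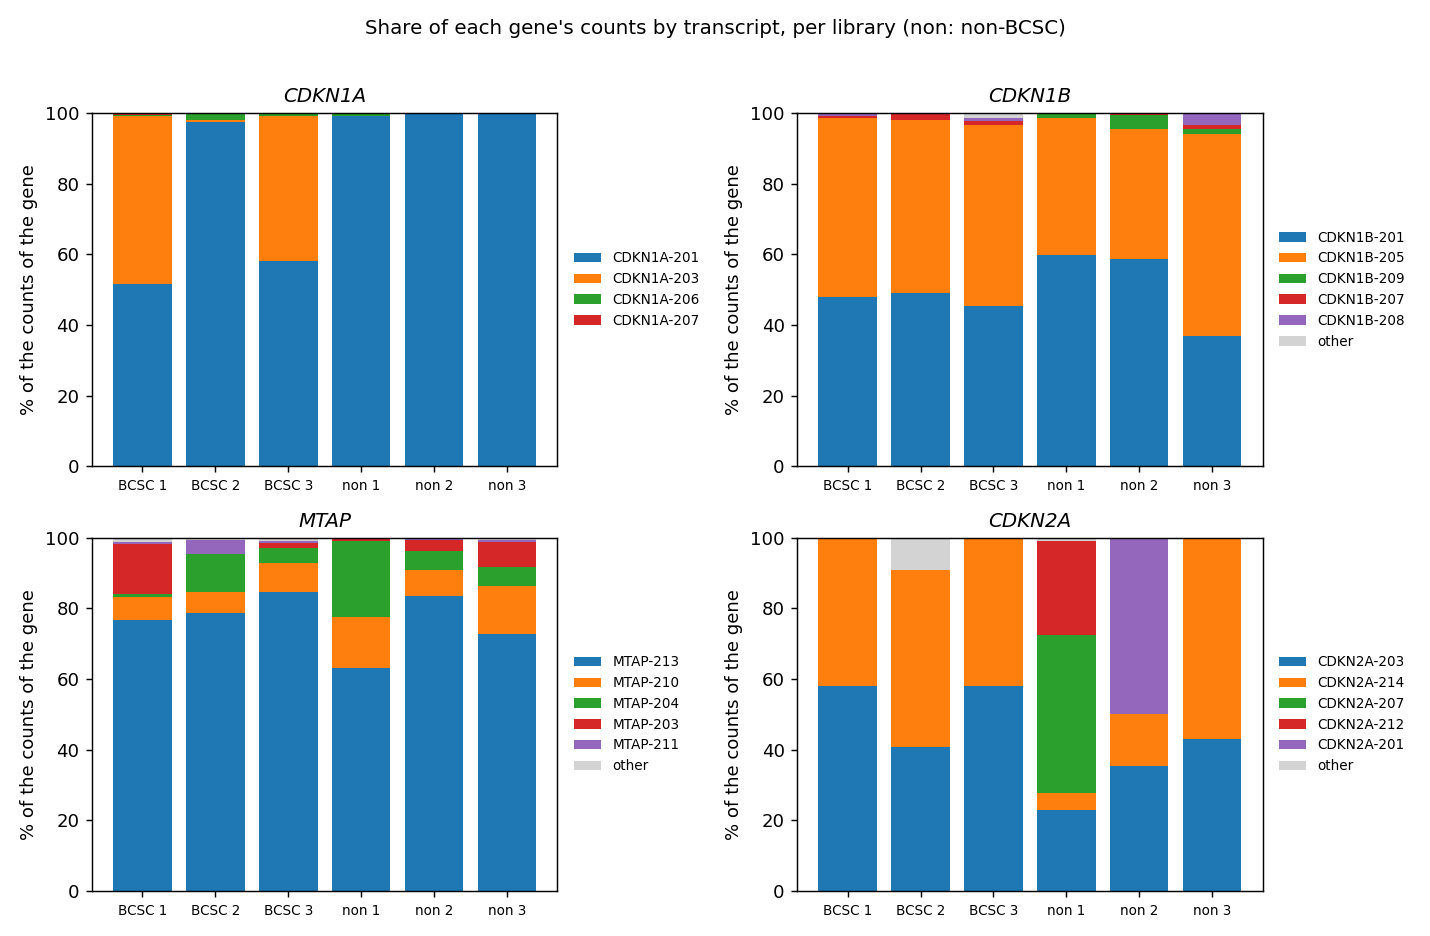
Share of the counts of CDKN1A, CDKN1B, MTAP and CDKN2A (vertical axis, percent) that each transcript held in each of the 6 libraries. CDKN1A-203 was seen in BCSC replicates 1 and 3 at 47.6% and 41.1%, MTAP-213 led in every library, and the CDKN2A transcripts changed from library to library in non-BCSC.

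The partners of these genes were taken from 4 lists, with 74 of 75 genes tested and the 9 genes left out, and 3 of the lists are described one by one. Over all 4 lists, 19 of the 74 were called higher and 2 lower (edgeR, adjusted over all genes), against 8.85% and 11.3% of all genes. The lists were chosen with earlier results of these data known, so these counts are a description only. The genes named from the lists were called with an edgeR adjusted p of at most 0.00767, their differences are given on the log2 scale ± SE, and CPM are means ± SD (n = 3, BCSC first). The CDKs, cyclins and RB/E2F genes that the inhibitors act on had 5 of 17 called higher and 0 lower, with a median log2 fold change of 0.32. CDK2, the main partner of cyclin E, rose by 1.63 ± 0.15 (99.3 ± 7.19 against 31.98 ± 4.20 CPM). CDK6, a target of INK4 proteins, rose by 1.34 ± 0.13 (677 ± 119 against 267 ± 18.5 CPM), and the activator E2F2 by 1.90 ± 0.27 (30.3 ± 7.48 against 8.10 ± 1.38 CPM). All 3 were also called after the GC and length correction, at 1.45, 1.20 and 1.63.

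Of the genes that control the inhibitors, 5 of 19 were called higher and 1 lower, with a median of 0.22. DTL, the substrate receptor that marks p21 for degradation in S phase, rose by 1.36 ± 0.12 (209 ± 6.68 against 81.2 ± 8.79 CPM). KLF4, an activator of CDKN1A, rose by 1.84 ± 0.37 (15.5 ± 4.59 against 4.34 ± 1.11 CPM). RPL11, a ribosomal protein that binds MDM2, fell by 1.90 ± 0.23 (284 ± 94.8 against 1062 ± 154 CPM). After that correction DTL (2.26) and RPL11 (−1.71) were still called, and KLF4 (0.96, adjusted p by edgeR = 0.0675) was not.

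The genes of methylthioadenosine salvage, polyamine synthesis and the PRMT5 complex, the pathway of MTAP, had 3 of 12 called higher and 1 lower, with a median of 0.35. SRM, spermidine synthase, whose by-product MTAP cleaves, rose by 2.20 ± 0.24 (90.9 ± 26.5 against 19.8 ± 3.90 CPM). PRMT5, the methyltransferase inhibited by methylthioadenosine, rose by 1.10 ± 0.21 (92.5 ± 21.7 against 43.2 ± 8.77 CPM), and its partner WDR77 by 1.47 ± 0.20 (53.6 ± 8.79 against 19.4 ± 2.76 CPM). APIP, a dehydratase of the salvage route, fell by 1.26 ± 0.26 (23.6 ± 8.66 against 56.6 ± 4.40 CPM). WDR77 was also called after the correction (1.17), while SRM (0.86), PRMT5 (0.85) and APIP (−0.07) were short of the fold minimum, as was PRMT5 (0.88) with the background removed. The GC and length correction moved the median of all genes from −0.05 to 0.20, and the medians of these 3 lists to between 0.81 and 0.95.

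**Figure D5:**
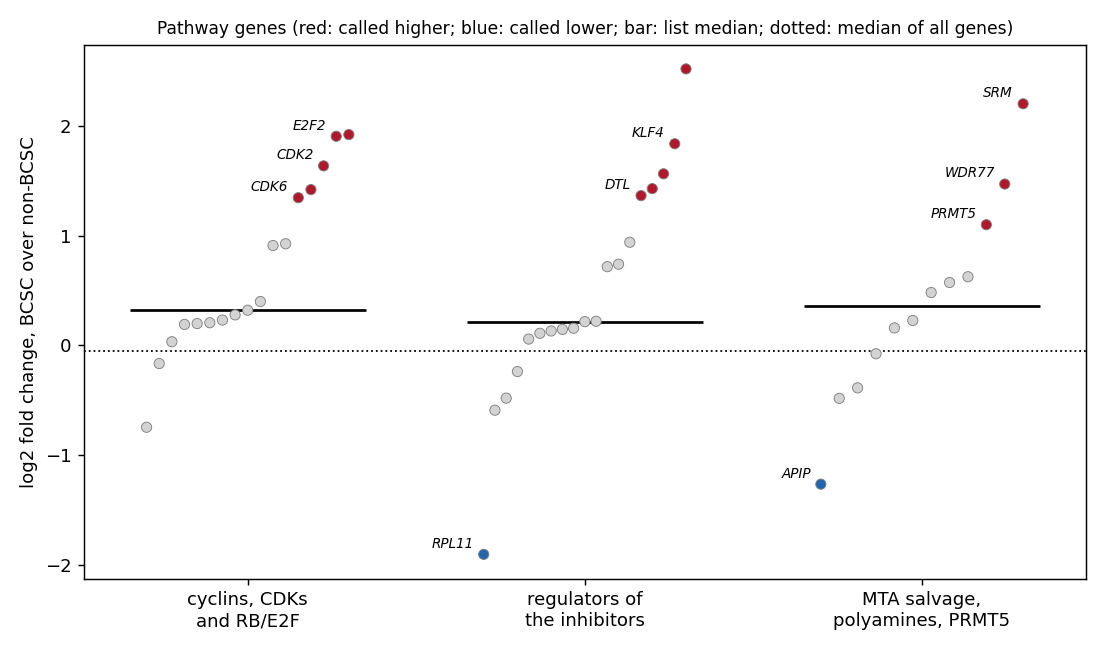
Log2 fold change (BCSC over non-BCSC) of each gene tested in the 3 lists described, with points sorted by value within a list, red for genes called higher and blue for genes called lower. Black bars give the list medians of 0.32, 0.22 and 0.35, and the dotted line gives the median of all genes at −0.05.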

How the data were processed

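LncRNA sequencing was carried out on 3 BCSC and 3 non-BCSC libraries of PTX-resistant MDA-MB-231. The study's RNA-Seq methods name adapter trimming and alignment with HISAT2 to hg19, whereas the submitters' processing notes name hg38, featureCounts and DESeq2. For lncRNAs of BCSC and non-BCSC the study's methods describe a microarray with t-tests, while its results name lncRNA sequencing. The deposited values are estimated counts per transcript, whole numbers and not normalized. How reads were assigned to transcripts, and whether strand was used, is not given in the sources used here. By identifier, 249618 of 252618 transcripts (98.8%, with 99.7% of the counts) matched GENCODE v44 on GRCh37, and counts were summed per gene. The 4 assembler-made transcripts were left out.

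Gene sums entered a quasi-likelihood test (edgeR 4.0.16 under R 4.3.3, robust, with TMM and filterByExpr, group as the one term), with Benjamini-Hochberg adjustment over 20442 genes. The common biological coefficient of variation was 0.453. Calls needed an adjusted p under 0.05 and a fold above 2, after the study's RNA-Seq methods. Transcripts were tested likewise. Alternatives were RLE size factors, DESeq2 1.42.0, other filters, a replicate block, each library left out, a GC content and length correction (loess, span 0.3), thinning, and removal of a background set by 391 olfactory receptor genes. Ratios were compared by exact permutation (scipy 1.17.1), and shared sequence was searched with BLAST+ 2.17.0.

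The 9 genes and the lists were chosen with earlier results of these data known. Named beyond the 9 were the 3 genes per list and direction with the smallest p among those called with a mean of at least 50 counts (the 2 with the smallest p where none was called), the genes around CDKN2A with a mean of at least 10 counts or next to it, and the 3 genes most like the member with the highest level per kb. The genes around CDKN2C were chosen after its values were seen. The fits were first checked on simulated counts with 200 genes changed 4-fold. At a dispersion (the square of the coefficient of variation) of 0.05, 197 of the 200 were called, with 12 false calls. At a dispersion of 0.2, 67 of the 200 were called, with 2 false calls. The second setting is the nearer to these data, given their coefficient of 0.453. A gene that was not called may therefore still differ. RefSeq promoters were found for 8 of the 9 genes (CDKN1C was not among them). Of the 4 lists, 1 list and some genes are not reported here.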

Additional observations from a re-analysis of the deposited data

How the results depend on the processing

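The 1 gene called higher (CDKN1A) and the 0 called lower stayed so under RLE size factors, without a filter on low counts, when every library needed at least 10 counts, with thinned counts, with protein-coding transcripts alone and with the background removed. DESeq2 called 2 higher (CDKN1A and CDKN2D), where it called 6.55% of all genes higher and 16.6% lower. With no minimum fold 2 were higher (CDKN1A and MTAP) and 1 lower (CDKN1B), against 15.3% and 14.6% of all genes. With GC content and length corrected 2 were higher (MTAP and MDM2) and 2 lower (CDKN1C and CDKN2A), against 16.8% and 8.86% of all genes. When 1 library was left out, 1 was higher in each fit (CDKN1A) and 0 to 1 were lower, the latter being CDKN1C without non-BCSC replicate 3. The fit without non-BCSC replicate 3 called 6.74% of all genes higher and 4.91% lower. The 19 partner genes called higher ranged from 13 (without BCSC replicate 1) to 21 over the fits without 1 library, and stood at 16 to 27 otherwise. The share of all genes called higher moved as well, from 8.85% in the main fit. Partner genes called higher were 24 with GC content and length corrected, against 16.8% of all genes. They were 27 with no minimum fold (15.3% of all genes) and 16 with the background removed (10.8%). The 2 called lower became 1 with GC content and length corrected and 5 with no minimum fold, against 8.86% and 14.6% of all genes. The 0 transcripts called by edgeR became 3 with DESeq2. The cause of these changes was not tested.

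Signs turned for CDKN1B with GC content and length corrected (0.34), for CDKN2B without non-BCSC replicate 2 (0.52, the range without 1 library being -0.59 to 0.52), and for MDM2 under RLE size factors (-0.0037), when every library needed at least 10 counts (-0.063) and with the background removed (-0.15). The direction of the ratio of MTAP to MDM2 turned with merged exons (log2 difference 0.53 against -0.22), and that of CDKN1A to MDM2 with GC content and length corrected (-0.98 against 1.56 per kb). CDKN2B was not tested with the background removed, and CDKN2B, CDKN1C and CDKN2D were not tested when every library needed at least 10 counts. With the replicate number as a replicate block 1 of the 9 genes was called higher, 0 lower, and 20 and 2 of the partner genes, so no call on the 9 genes changed. Deviations of same-numbered libraries correlated at 0.179, 0.014 and 0.219, and BCSC replicate 2 correlated best with non-BCSC replicate 1, so the numbers were not taken to pair the libraries. CDKN1C, CDKN2B and non-BCSC CDKN2D had 4 to 72 counts per library, and the SEs of these 3 genes (0.71 to 0.93) were the largest of the 8 tested.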
